A study of Mus musculus with 5 samples.

Results

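Mesenchymal cells of the lung secrete factors that direct the growth, guidance and stability of nearby vessels. Described here are 10 of them, taken by symbol for their known roles, with earlier results of these data known: Vegfa, Vegfb, Vegfc, Figf, Angpt1, Angpt2, Angptl2, Pgf, Cxcl12 and Hgf. All 10 were among the 23478 genes of the deposited table, and all 10 were among the 15298 genes with enough reads to be tested. They were measured by RNA-Seq in GFP-sorted lung cells of P6 pups, in 2 control libraries (Igf1r Flox/Wildtype) and 3 Igf1r-deleted libraries (Igf1r Flox/Flox), called mutants for short. Every pup carried Gli1creER and the Rosa-EGFP reporter and received tamoxifen at 100 µg per pup on P0 and P1, so controls can also lose a copy of Igf1r in the GFP-labeled cells. Per the study, Gli1-CreERT2 acts mainly in lung fibroblasts, myofibroblasts and lipofibroblasts among them, in few smooth muscle cells and rarely in pericytes, so most other cells of these lungs keep the gene. Pups of both sexes and of mixed background were included. The number of pups behind a library and the batches are not given in the sources used here, so p-values measure only the spread between these libraries, which may in part be technical.

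Alveolar septa form together with their capillaries, and the mesenchyme that supports them lies beside the endothelium. VEGF-A, the main growth factor of endothelial cells, signals through the receptors encoded by Kdr and Flt1. VEGF-B and placental growth factor, the product of Pgf, bind FLT1, whereas VEGF-C and VEGF-D, the product of Figf (now named Vegfd), bind FLT4 of lymphatic endothelium. Angiopoietin 1 activates the endothelial receptor TIE2, encoded by Tek, and steadies vessels, and angiopoietin 2 binds the same receptor and can oppose it. Angptl2 encodes an angiopoietin-like protein that does not bind TIE2. CXCL12 attracts cells that bear CXCR4 and is taken up by ACKR3, and HGF signals through MET of epithelial and endothelial cells.

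Library totals were 35116766 to 37597857 counts, with 17099 to 17239 genes detected in each. The unit of level is CPM, a gene's reads scaled to a common library size after correction with edgeR's TMM factors. Igf1r was at 324 CPM in each control and at 140, 177 and 194 CPM in the mutants. The fibroblast genes Col1a1, Col1a2 and Col3a1 were at 5212 to 9797 CPM in all 5 libraries, against sums of 556 to 1225 CPM for 14 epithelial markers, of which Sftpc was the highest (233 to 552 CPM) and Epcam among the lowest (1.92 to 5.10 CPM). Control replicate 1 stood apart from the other libraries, and it lay farther than control replicate 2 from the mean of the mutants for 66.7% of the genes tested and for 7 of the 10 factors. By Xist and Y-linked genes, mutant replicates 1 and 3 held female cells and the other 3 libraries, both controls among them, male cells. In bulk samples such as these, fewer cells of a type and less RNA per cell cannot be told apart.

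The factors differed widely in abundance. Divided by exon length (GENCODE M21 on mm10) to allow comparison between genes, Figf was the highest, at 106 to 155 CPM per kb over the 5 libraries, and only 1.64% of the genes tested were at or above its mean. Angptl2, at 36.7 to 73.4 CPM per kb, and Vegfa, at 46.7 to 63.3 CPM per kb, followed. Those ranges overlapped, so the order of Angptl2 and Vegfa was not resolved. Angpt1 came next with 28.3 to 44.1 CPM per kb, below the range of Vegfa but not of Angptl2, then Cxcl12 with 18.7 to 22.2 and Vegfb with 10.8 to 12.7 CPM per kb. The least abundant were Angpt2 (4.68 to 7.99 CPM per kb), Vegfc (3.31 to 6.13 CPM per kb), Pgf (2.87 to 3.96 CPM per kb) and Hgf (2.01 to 2.77 CPM per kb). Vegfc could be separated by its range neither from Angpt2 nor from Pgf, whereas Hgf lay below Pgf in every library. Even Pgf, the factor with the lowest counts, had at least 289 reads in each library.

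Of the summed level of the 5 VEGF family genes per kb, Figf made up 60.3% to 65.2% and Vegfa 26.4% to 28.7% in each library. Vegfb contributed 4.81% to 6.72%, Pgf 1.32% to 1.88% and Vegfc 1.53% to 3.56%. The sum itself was 172 and 224 CPM per kb in the controls and 237, 190 and 216 CPM per kb in mutant replicates 1, 2 and 3, so the genotypes overlapped. Transcripts of the FLT4 ligand Figf thus outnumbered those of Vegfa per length in both genotypes.

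**Figure D1:**
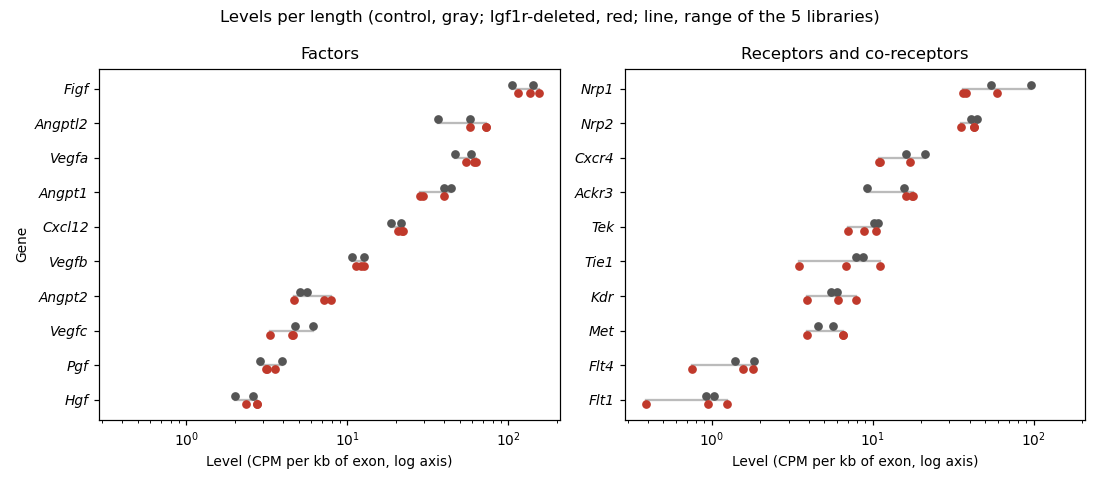
Level of each factor (left) and of each receptor or co-receptor (right) per library, in CPM per kb of exon on a log axis, with control libraries in gray, Igf1r-deleted libraries in red and the range of the 5 libraries as a line. Figf sits at 106 to 155 CPM per kb, above Angptl2, Vegfa and all receptors shown.

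The promoters of Angptl2, Vegfc and Vegfa are shown because these were the factor with the most positive difference between the genotypes, the factor whose genotypes did not overlap, and the main ligand of KDR. Each is the 250 bases before a RefSeq start on GRCm38.p6, the assembly behind mm10, written 5′ to 3′ on the strand of the gene. Capitals mark the GC box GGGCGG, a motif bound by SP1 and related factors, on either strand (CCGCCC on the other).
Angptl2, chr2:33215711-33215960, plus strand: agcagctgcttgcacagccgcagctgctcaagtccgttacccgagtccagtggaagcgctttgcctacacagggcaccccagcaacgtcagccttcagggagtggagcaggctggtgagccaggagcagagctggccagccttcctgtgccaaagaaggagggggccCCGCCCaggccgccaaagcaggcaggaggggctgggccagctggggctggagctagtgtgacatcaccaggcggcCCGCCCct
Vegfc, chr8:54077282-54077531, plus strand: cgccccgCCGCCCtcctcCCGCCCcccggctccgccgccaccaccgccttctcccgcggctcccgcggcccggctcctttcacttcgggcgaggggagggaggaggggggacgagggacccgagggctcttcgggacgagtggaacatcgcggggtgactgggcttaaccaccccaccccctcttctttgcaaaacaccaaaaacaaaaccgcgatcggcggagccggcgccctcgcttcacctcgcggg
Vegfa, chr17:46032378-46032627, minus strand: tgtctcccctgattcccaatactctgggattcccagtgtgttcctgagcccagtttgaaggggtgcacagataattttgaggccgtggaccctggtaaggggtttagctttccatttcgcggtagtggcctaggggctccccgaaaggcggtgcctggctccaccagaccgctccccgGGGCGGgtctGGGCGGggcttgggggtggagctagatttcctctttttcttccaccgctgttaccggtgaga
Of the 10 factors, 8 had an entry, with 11 starts in all, and Angpt1 and Angpt2 had none. A GC box was found in 7 of the 11 windows, against 32.7% of 32851 windows of the same length. The 3 promoters shown hold 2 each, beginning 83 and 8 bases before the start of Angptl2, 243 and 232 bases before that of Vegfc, and 72 and 62 bases before that of Vegfa. The hypoxia response core ACGTG, searched on both strands, occurred in 1 of the 11 windows, at a downstream start of Vegfa, against 16.6% of all windows. The AP-1 site TGANTCA occurred in none of the 11, against 6.75% of all windows. The windows shown held neither a hypoxia response core nor an AP-1 site.

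Deletion of Igf1r was compared with control to ask whether these ligands change in the GFP-labeled cells. None of the 10 factors passed an adjusted p-value of 0.05 in edgeR's quasi-likelihood test, with adjusted p-values of 0.397 to 0.921, and no gene of the whole table passed it either (0 of 15298, 0% of genes tested). With DESeq2's Wald test, none of the 10 passed, against 1.30% of all genes. Igf1r itself, with a log2 fold change of −0.93, did not pass in edgeR (adjusted p = 0.354) but passed in DESeq2 (adjusted p = 1.1e-05). A factor that does not pass in edgeR is therefore not shown to be unchanged. At an unadjusted p under 0.05 edgeR called 1 of the 10, Angptl2, against 12.4% of all genes tested, and DESeq2 called 2, Angptl2 and Angpt1, against 13.2%. The genotypes did not overlap for 1 of the 10, Vegfc, against 31.0% of all genes. Only Angptl2 met the criterion of the study in this test (a change of 0.5 or more in log2, an unadjusted p under 0.05 and a level over 1, here in CPM), against 5.83% of all genes, 2.16% higher and 3.67% lower in mutants. By none of these counts were the factors far above the share of all genes. Mean levels were higher in mutants for 7 factors and lower for 3. The median log2 fold change was 0.11 over the 10 factors and 0.015 over all genes tested, and without control replicate 1 the median of the factors was −0.035.

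**Figure D2:**
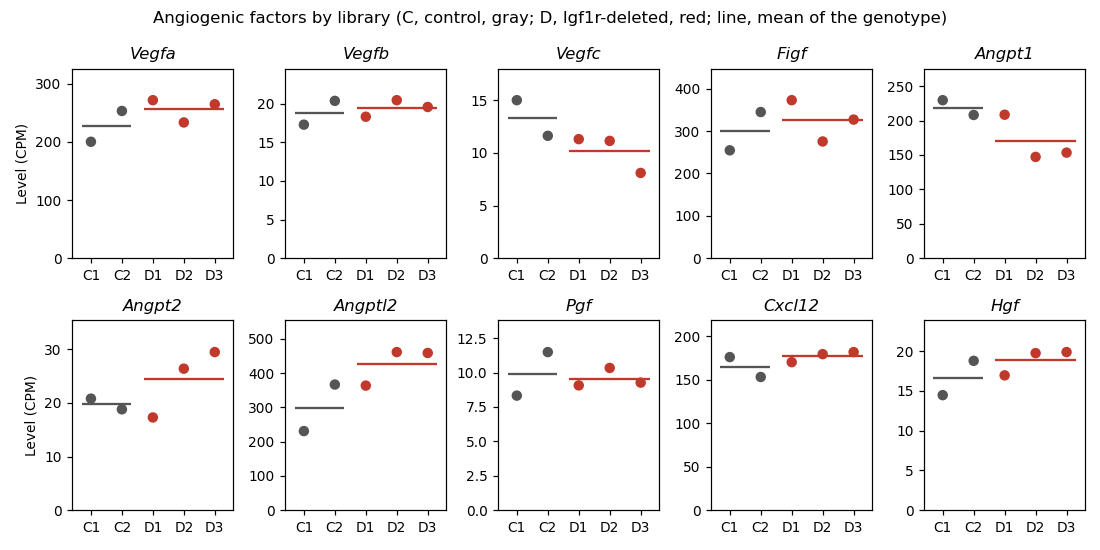
Level in CPM of each of the 10 factors in each library, with the 2 controls (C1, C2) in gray, the 3 Igf1r-deleted libraries (D1 to D3) in red and the mean of each genotype as a line. The genotypes are separate only for Vegfc, where all Igf1r-deleted libraries lie at or below 11.3 CPM.

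Among the VEGF ligands, Vegfc had the largest difference. Vegfc, the main lymphangiogenic ligand, occupies chr8:54077606-54187096 of mm10, plus strand. It was at 15.0 and 11.6 CPM in the controls and at 11.3, 11.1 and 8.10 CPM in mutant replicates 1, 2 and 3. All mutants lay below both controls, although control replicate 2 and mutant replicate 1 were close together. The means were 13.3 ± 2.39 CPM (SD, n = 2) and 10.2 ± 1.81 CPM (SD, n = 3), for a log2 fold change of −0.39 (standard error, SE, 0.20, 95% interval −0.86 to 0.085, adjusted p = 0.461). It was −0.20 with control replicate 1 left out, −0.57 with control replicate 2 left out and −0.25 without mutant replicate 3. With library totals in place of TMM factors the genotypes of Vegfc overlapped. Mutant replicate 3, with the lowest Vegfc, also had the lowest sum of endothelial markers (634 CPM, against 1030 to 1474 CPM in the other libraries), and the part of these cells in the level of Vegfc was not tested.

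Vegfa, the main angiogenic ligand of the family, occupies chr17:46016993-46032369, minus strand. Its levels were 200 and 253 CPM in the controls, against 271, 233 and 264 CPM in the mutants. Mutant replicate 2 lay between the controls, and the other 2 lay above both. The log2 fold change was 0.18 (SE 0.13, adjusted p = 0.592), with an interval that reaches from 0.911 to 1.41 times the control level. It was 0.014 with control replicate 1 left out, the lowest library, and 0.35 with control replicate 2 left out.

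Figf occupies chrX:164373378-164402650, plus strand. It was at 255 and 345 CPM in the controls and at 373, 275 and 327 CPM in the mutants. Mutant replicate 1 lay above both controls and control replicate 1 below every mutant, and the other libraries overlapped (log2 fold change 0.12, SE 0.17, adjusted p = 0.794). This difference was −0.091 with control replicate 1 left out and 0.34 with control replicate 2 left out. The 2 libraries of female cells held 373 and 327 CPM of this X-linked gene and the 3 of male cells 255 to 345 CPM. With Xist as a covariate the log2 fold change between the genotypes was 0.010. Both libraries of female cells were mutants and both controls were of male cells, so that fit rests largely on mutant replicate 2. Sex and genotype cannot be fully told apart here, and the part of sex in the Figf level was not tested.

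The remaining ligands of FLT1 were low, with small differences between the genotypes. Vegfb (chr19:6982473-6987651, minus strand) ranged from 17.3 to 20.4 CPM in the controls and from 18.3 to 20.4 CPM in the mutants (log2 fold change 0.047, SE 0.13, adjusted p = 0.889). Its 95% interval held the difference to between 0.842 and 1.27 times the control level. Pgf (chr12:85166635-85177790, minus strand) was at 8.32 and 11.5 CPM in the controls, and the 3 mutants, at 9.07 to 10.3 CPM, all lay between them. Its log2 fold change was −0.052 (SE 0.19, adjusted p = 0.921), and it turned to 0.022 with library totals in place of TMM factors.

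**Figure D3:**
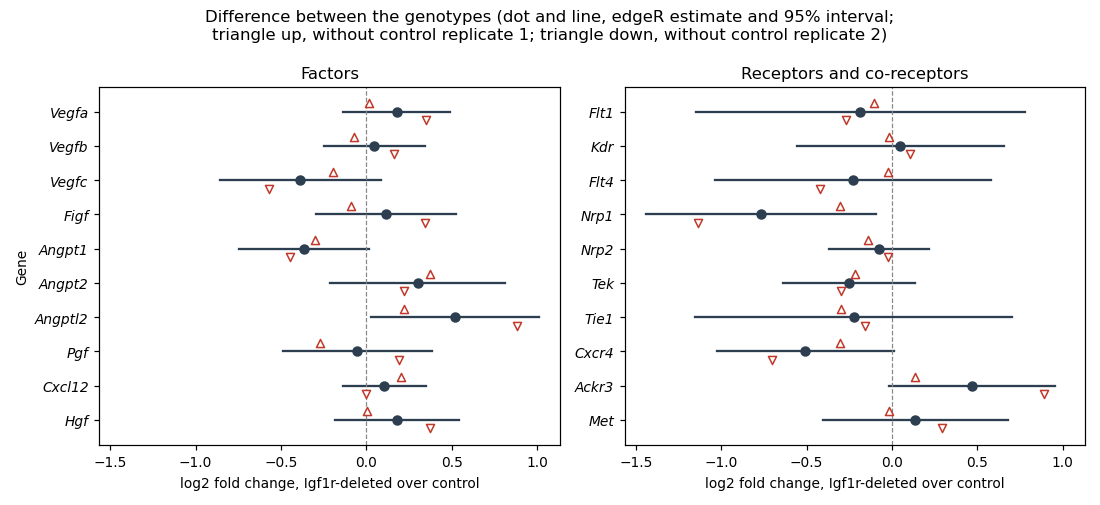
The log2 fold change of each factor (left) and of each receptor or co-receptor (right) in Igf1r-deleted over control libraries, with edgeR's 95% interval as a line and, as open triangles, the value without control replicate 1 (pointing up) or 2 (pointing down). The interval excludes 0 for Angptl2 and Nrp1 only, and the Angptl2 value is 0.22 without control replicate 1 and 0.88 without replicate 2.

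In 2 of the 3 mutants Angpt1 was lower and Angpt2 higher than in both controls. Angpt1 occupies chr15:42424723-42676977, minus strand. It was at 230 and 208 CPM in the controls and at 208, 147 and 153 CPM in mutant replicates 1, 2 and 3. Mutant replicate 1 was level with control replicate 2, and the other 2 lay below both controls. The means were 219 ± 15.2 CPM (SD, n = 2) and 170 ± 33.7 CPM (SD, n = 3), for a log2 fold change of −0.37 (SE 0.16, 95% interval −0.75 to 0.013, adjusted p = 0.406). The adjusted p of DESeq2 was 0.302. The difference in Angpt1 remained negative with each library left out, from −0.55 without mutant replicate 1 to −0.28 without mutant replicate 2. On 14.16% of its exon length Angpt1 overlaps Gm17473 of the opposite strand, and whether counting used strand is not given in the sources used here, so reads of that stretch cannot be assigned.

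Angpt2 occupies chr8:18690263-18741562, minus strand. It was at 20.8 and 18.8 CPM in the controls and at 17.3, 26.4 and 29.5 CPM in the mutants. Replicate 1 was the lowest of all 5 libraries and replicates 2 and 3 were the highest, so the genotypes overlapped (log2 fold change 0.30, SE 0.22, adjusted p = 0.582). This difference was 0.14 without mutant replicate 3 and 0.49 without mutant replicate 1. Angpt2 is known as an endothelial product. It was highest in mutant replicate 3, with the lowest endothelial marker sum (634 CPM), and next highest in mutant replicate 2, with the highest sum (1474 CPM). The part of endothelial cells in the Angpt2 level was not tested.

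The ratio of Angpt1 to Angpt2 reads, which compares the activating ligand of TIE2 with its context-dependent antagonist, was 11.0 and 11.1 in the controls. In mutant replicates 1, 2 and 3 it was 12.1, 5.58 and 5.20. The controls and mutant replicate 1 were thus close together, and the other 2 libraries had a ratio about as low as each other. The mean log2 ratio differed by −0.65 between the genotypes (exact permutation test, two-sided, p = 0.4, where 2 against 3 libraries allow no p below 0.1). Without mutant replicate 1 the difference was −1.04. Mutant replicates 2 and 3 also had the highest sums of smooth muscle markers, 2571 and 2107 CPM against 1102 to 1818 CPM in the other libraries, and the part of such cells in the ratio was not tested.

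**Figure D4:**
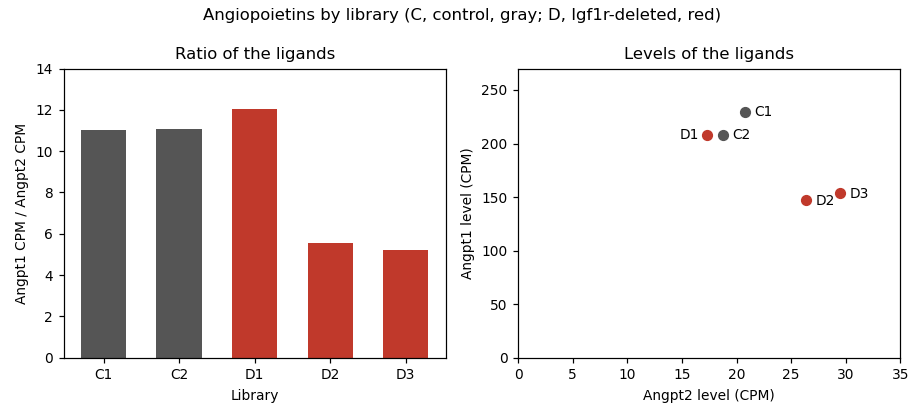
Ratio of Angpt1 to Angpt2 CPM in each library (left) and Angpt1 level against Angpt2 level, both in CPM (right), for control (C1, C2, gray) and Igf1r-deleted (D1 to D3, red) libraries. Igf1r-deleted replicates 2 and 3 sit at ratios of 5.58 and 5.20, whereas replicate 1, at 12.1, sits with the controls.

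Angptl2 had the largest difference of the 10 factors. It occupies chr2:33216069-33247717, plus strand, within the body of Ralgps1 of the opposite strand, whose exons it does not overlap. Its levels were 231 and 367 CPM in the controls, against 364, 462 and 459 CPM in mutant replicates 1, 2 and 3. Replicates 2 and 3 lay above both controls, and replicate 1 was level with control replicate 2, so the genotypes overlapped narrowly. The means were 299 ± 96.1 CPM (SD, n = 2) and 428 ± 55.7 CPM (SD, n = 3). The log2 fold change was 0.52 (SE 0.21, 95% interval 0.027 to 1.01), with an adjusted p of 0.397 in edgeR and 0.222 in DESeq2. It depended on which control was used, at 0.22 with control replicate 1 left out and 0.88 with control replicate 2 left out. The unadjusted p of Angptl2 was also above 0.05 without mutant replicate 2 or 3, where the log2 fold change was 0.45 and 0.46.

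The levels of Cxcl12 and Hgf overlapped between the genotypes. Cxcl12, a chemokine of perivascular mesenchyme, occupies chr6:117168535-117181367, plus strand. It was at 176 and 153 CPM in the controls and at 170, 179 and 182 CPM in the mutants. The whole range of the 5 libraries was therefore narrow, and the interval of the difference ran from 0.910 to 1.27 times the control level (log2 fold change 0.11, SE 0.10, adjusted p = 0.683). Without control replicate 2, the lowest library, the log2 fold change was −0.0014. Hgf (chr5:16553495-16620152, plus strand) was at 14.5 and 18.8 CPM in the controls and at 16.9, 19.7 and 19.9 CPM in the mutants (log2 fold change 0.18, SE 0.15, adjusted p = 0.642). The difference was 0.0014 with control replicate 1 left out and 0.37 with control replicate 2 left out. On 6.74% of its exon length Hgf shares sequence with the overlapping Gm43489 of the same strand, so its count is uncertain to that extent.

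The receptors and co-receptors of these ligands were read from the same fit. Of 10, 7 were lower and 3 higher in the means of the mutants, with a median log2 fold change of −0.20. None passed an adjusted p of 0.05. Lower at an unadjusted p was 1 of the 10, against 6.75% of all genes, and above both controls in every mutant was 1 of the 10, against 16.0%. Nrp1, the neuropilin co-receptor of VEGF-A and of semaphorins, had the largest difference, with 943 and 532 CPM in the controls, against 577, 354 and 370 CPM in mutant replicates 1, 2 and 3. Control replicate 1 was far above all other libraries, and mutant replicate 1 was above control replicate 2. The log2 fold change was −0.77 (SE 0.29, adjusted p = 0.375), and it was −0.30 with control replicate 1 left out and −1.13 with control replicate 2 left out. Nrp2, the co-receptor of VEGF-C and VEGF-D, was at 419 to 524 CPM in all libraries (log2 fold change −0.075, SE 0.12, adjusted p = 0.815).

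The receptors of CXCL12 had differences of opposite sign, and neither passed the adjusted threshold. Ackr3, which clears CXCL12, was at 30.7 and 52.1 CPM in the controls and at 58.5, 59.8 and 54.0 CPM in the mutants, all of them above both controls (log2 fold change 0.47, SE 0.21, adjusted p = 0.404). Cxcr4, its signaling receptor, was at 38.1 and 29.0 CPM in the controls and at 31.0, 20.1 and 19.8 CPM in the mutants (log2 fold change −0.51, SE 0.22, adjusted p = 0.403). Replicate 1 lay between the controls and replicates 2 and 3 below both. For Ackr3 the log2 fold change was 0.14 with control replicate 1 left out and 0.89 with control replicate 2 left out, and for Cxcr4 it was −0.30 and −0.70. Cxcr4 is also a gene of leukocytes, and the sum of 13 hematopoietic markers was 802 and 525 CPM in the controls, against 607, 423 and 264 CPM in the mutants. Ptprc, which marks these cells, was at 12.2 to 31.1 CPM, and their part in the Cxcr4 level was not tested. Met, the HGF receptor, was at 35.2 and 43.7 CPM in the controls and at 30.0, 50.1 and 50.0 CPM in the mutants (log2 fold change 0.14, SE 0.23, adjusted p = 0.816).

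All 5 receptors known mainly from endothelium were lowest in mutant replicate 3, as were the endothelial markers Pecam1 (40.2 to 120 CPM over the 5 libraries) and Cdh5 (58.4 to 206 CPM). Of 20 endothelial markers, 13 were lower and 7 higher in mutants, with none at an unadjusted p under 0.05 (against 12.4% of all genes). The sum of 16 of them, without Flt1, Kdr, Tek and Tie1, was 943 and 910 CPM in the controls, against 887, 1282 and 543 CPM in mutant replicates 1, 2 and 3. Kdr was at 49.5 and 54.1 CPM in the controls and at 54.6, 71.1 and 35.2 CPM in the mutants, highest and lowest in the same libraries as that sum. Flt1 (5.26 to 16.8 CPM) and Tie1 (17.1 to 54.3 CPM) were likewise highest in mutant replicate 2 and lowest in replicate 3. Tek (33.0 to 50.5 CPM) and Flt4 (6.18 to 15.1 CPM) were lowest in the same library and highest in control replicate 1. Per 100 CPM of those 16 markers, Kdr ranged from 5.25 to 6.48, Tie1 from 3.16 to 4.71, Tek from 3.86 to 6.08, Flt1 from 0.968 to 1.48 and Flt4 from 1.14 to 1.60. The corresponding values were 27.6 to 100 for Nrp1, 32.7 to 92.8 for Nrp2, 3.26 to 9.94 for Ackr3, 1.56 to 4.04 for Cxcr4 and 3.38 to 9.21 for Met. The highest of these values was 1.23 times the lowest for Kdr and 1.58 times for Tek. It was 3.63 times for Nrp1, 2.84 times for Nrp2, 3.05 times for Ackr3, 2.58 times for Cxcr4 and 2.72 times for Met. The marker sum itself varied 2.36 times between libraries, which alone widens the range of a gene as steady in CPM as Nrp2. Tek, at 33.0 to 50.5 CPM, also varied less than that sum before the division, and the division did not narrow its range. The part of endothelial cells in these levels was not tested. Per kb, Nrp1 (36.1 to 96.4 CPM per kb) and Nrp2 (35.4 to 44.2 CPM per kb) were the most abundant receptors, above Kdr (3.90 to 7.88 CPM per kb) and Flt1 (0.389 to 1.24 CPM per kb) in every library.

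**Figure D5:**
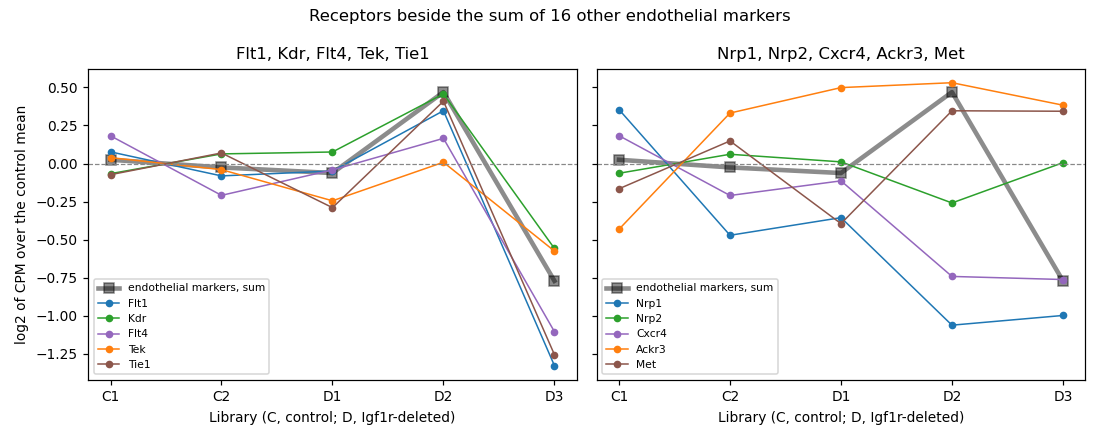
The log2 of the CPM over the control mean of each receptor in each library, for Flt1, Kdr, Flt4, Tek and Tie1 (left) and Nrp1, Nrp2, Cxcr4, Ackr3 and Met (right), with the sum of 16 other endothelial markers as the thick gray line. The receptors on the left are lowest in Igf1r-deleted replicate 3, where the marker sum is 543 CPM, whereas Ackr3 and Met on the right are above the control mean there.

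Proteins that process, activate or clear the factors were counted in the same way. Of 16, 14 were lower and 2 higher, where 7301 of all 15298 genes tested were lower, with a median log2 fold change of −0.21, and 1 was lower at an unadjusted p under 0.05 (against 6.75% of all genes). That gene was Spint2, an inhibitor of the proteases that activate HGF, at 47.7 and 37.1 CPM in the controls and at 30.1, 35.3 and 28.1 CPM in the mutants (log2 fold change −0.44, SE 0.15, adjusted p = 0.354). Pcsk5, a proprotein convertase that can cleave VEGF-C, was at 130 and 110 CPM against 98.9, 101 and 105 CPM, without overlap (log2 fold change −0.24, SE 0.11, adjusted p = 0.409). Hspg2, the perlecan core protein that holds growth factors in the matrix, overlapped between the genotypes (log2 fold change −0.43, SE 0.20, adjusted p = 0.429). None of the 16 passed an adjusted p of 0.05. Hgfac and Hpn were below 1 CPM in every library, and St14, Spint1 and Spint2 are also genes of epithelium, whose 14 markers were lower in 12 cases (median log2 fold change −0.33). The part of epithelial cells in these levels was not tested.

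Other secreted proteins with known roles in vessel growth, not all of them promoting it, had lower or higher means in mutants. Of 22, 15 were lower and 7 higher, with a median of −0.11 on the log2 scale, and 1 was lower at an unadjusted p under 0.05 (against 6.75% of all genes). Ecm1, an extracellular matrix protein, was at 91.3 and 70.6 CPM in the controls and at 67.8, 60.3 and 53.2 CPM in the mutants (log2 fold change −0.42, SE 0.15, adjusted p = 0.364). Grem1 had the largest difference of the list, upward, at 0.374 and 1.31 CPM in the controls and at 0.963, 4.02 and 2.76 CPM in the mutants. Its log2 fold change was 1.61 (SE 0.72, adjusted p = 0.411 in edgeR), and mutant replicate 1 lay between the controls. Angptl1, an angiopoietin-like gene, was low throughout, at 4.64 and 5.65 CPM in the controls and at 4.05, 2.69 and 1.36 CPM in the mutants (log2 fold change −0.93, SE 0.42, adjusted p = 0.411). Angptl1 and Angptl2 thus had differences of opposite sign, and neither passed the adjusted threshold.

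Of 18 secreted proteins, most of them known to restrain vessel growth, 13 were lower and 5 higher, with a median log2 fold change of −0.047. At an unadjusted p under 0.05, 1 was lower, Thbs1, against 6.75% of all genes. Thbs1, encoding thrombospondin 1, was the most abundant of those named, with 7193 and 6062 CPM in the controls, against 4876, 2622 and 3103 CPM in the mutants. Every mutant lay below both controls (log2 fold change −0.91, SE 0.26, adjusted p = 0.354). Col4a3, whose collagen chain yields the inhibitor tumstatin, was at 31.4 and 28.6 CPM in the controls and at 27.3, 20.4 and 13.5 CPM in the mutants (log2 fold change −0.56, SE 0.26, adjusted p = 0.419). It is also a gene of alveolar epithelium, whose 14 markers summed to 1216 and 1137 CPM in the controls and to 843, 1225 and 556 CPM in the mutants. The contribution of those cells to Col4a3 was not tested.

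Oxygen sensing and hypoxia-induced genes were included because VEGF-A is a classic target of the hypoxia response. Of 24, 15 were lower and 9 higher, with a median of −0.18. At an unadjusted p under 0.05, 4 were lower (against 6.75% of all genes) and none were higher (against 5.65%). They included Ddit4, an inhibitor of mTORC1, at 57.1 and 35.8 CPM in the controls and at 29.8, 25.1 and 18.0 CPM in the mutants (log2 fold change −0.93, SE 0.25, adjusted p = 0.354). Mxi1, a MAX-binding repressor, was at 126 and 83.5 CPM against 71.1, 73.1 and 73.6 CPM, and Bnip3, a mitophagy receptor, at 57.4 and 28.3 CPM against 27.2, 20.0 and 24.7 CPM. The controls had no single order over the list. Vegfa, lowest in control replicate 1, and Hif1a and P4ha1 of the list were lower in control replicate 1 than in control replicate 2. In each of the 3 genes with levels given above, control replicate 1 was instead far above control replicate 2. The same library was also the highest in glucocorticoid-induced genes, of which 14 of 14 were lower in mutants, 12 at an unadjusted p under 0.05, and which summed to 5645 and 3223 CPM in the controls and to 2300, 1696 and 1977 CPM in the mutants. Immediate early and dissociation response genes, 14 of 14 lower and 8 at an unadjusted p under 0.05, summed to 26607 and 22890 CPM in the controls and to 17423, 16685 and 19610 CPM in the mutants. The part of these responses in the levels of the factors was not tested.

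Markers of the other cell types that could have entered the sort differed between libraries, and no marker in the table was at 0 in all 5 of them. Smooth muscle markers summed to 1102 and 1688 CPM in the controls and to 1818, 2571 and 2107 CPM in mutant replicates 1, 2 and 3. All 10 of them were higher in the mean, 6 at an unadjusted p under 0.05 (against 5.65% of all genes), with Myh11 at 158 to 314 CPM, Cnn1 at 21.4 to 37.4 CPM and Des at 60.5 to 195 CPM. The largest were Acta2 (407 and 655 CPM in the controls, against 764 to 1067 CPM in the mutants) and Tagln (295 and 445 CPM, against 449 to 660 CPM), which also count among the myofibroblast markers, and αSMA, the product of Acta2, stains myofibroblasts that the reporter labels. The sum was lowest in control replicate 1 and highest in mutant replicates 2 and 3, the same libraries in which Angptl2 was lowest and highest. Pericyte markers, 5 lower and 7 higher, summed to 726 and 893 CPM in the controls and to 880, 970 and 837 CPM in the mutants. The 12 markers of alveolar myofibroblasts summed to 4520 and 4746 CPM in the controls and to 4695, 5441 and 5348 CPM in the mutants. Of these 12, 8 were higher and 4 lower in mutants, the 4 being Pdgfra, Hhip, Aspn and Enpp2. The 12 genes of fibroblasts in general summed to 67208 and 60181 CPM in the controls and to 60172, 43389 and 48614 CPM in the mutants, the lowest sums being in the 2 libraries with the least Angpt1. Markers of adventitial fibroblasts, at 3759 and 4261 CPM in the controls, against 4111, 3137 and 3443 CPM in the mutants, also had their lowest sums in mutant replicates 2 and 3. The part of the cell mixture in the levels of Angpt1, Angpt2 and Angptl2 was not tested.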

How the data were processed

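Library preparation used the NEBNext Ultra kit on RNA of GFP-sorted cells, sequenced as paired 150-bp reads. The authors used Trim Galore for trimming, Bowtie2 for alignment to mm10 and GenomicAlignments for counting, and deposited raw counts per gene symbol. The annotation and the use of strand are not given in the sources used here. The assignment of each library to control or mutant came from sample titles.

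The test was that of edgeR 4.0.16, run with limma 3.58.1 in R 4.3.3: TMM factors, filterByExpr by group, genotype as the only term, two-sided quasi-likelihood F test, and Benjamini-Hochberg adjustment over 15298 genes. CPM in log2 had a prior count of 2. DESeq2 1.42.0 was an alternative, with other normalizations, filters and spreads, a replicate block, Xist as a covariate and each library left out. A count of 0 allows 3 counts, a limit of counting error only. Positions and exon lengths came from GENCODE M21, where 22114 of 23478 symbols matched directly and 1010 as older symbols, and promoters from RefSeq.

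All 10 factors and 10 receptors are named. Of the other gene lists, written from general knowledge, those with the smallest p or defining markers are named. The factors and lists were chosen with earlier results of these data known.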

Additional observations from a re-analysis of the deposited data

How the results depend on the processing

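No factor passed an adjusted p of 0.05 under any of the 10 alternatives or with any of the 5 libraries left out. Of the 150 log2 fold changes of the factors under these settings, 144 kept their direction and side of the threshold and 6 reversed. Pgf turned from −0.052 to 0.022 with library totals and to 0.057 with Xist as a covariate. Among the receptors, Flt1 became 0.15 with the replicate block and 0.13 with the Xist covariate, Tie1 0.065 and 0.17, Flt4 0.075 and Met −0.012 with the block, and Kdr −0.0041 with limma voom. With libraries left out in turn, log2 fold changes ranged from −0.071 to 0.16 for Vegfb, −0.091 to 0.34 for Figf, −0.27 to 0.19 for Pgf, −0.0014 to 0.20 for Cxcl12, −0.55 to 0.16 for Flt1, −0.21 to 0.28 for Kdr, −0.48 to 0.063 for Flt4, −0.14 to 0.0029 for Nrp2, −0.70 to 0.099 for Tie1 and −0.014 to 0.34 for Met. The Angpt1 to Angpt2 difference ranged from −1.04 to −0.43.

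The replicate number as a block left mutant replicate 3 without a partner. Deviations from the genotype mean correlated between same-numbered libraries with r = 0.21 and 0.12 over genes. Those of the 2 controls mirror each other, so the 2 values are not independent, and differently numbered libraries were not compared. The labels do not say that a number marks a litter or day. The block gave 136 genes at an adjusted p under 0.05, none of them a factor, and DESeq2 gave 199, against 0. Libraries left out gave 0 to 45. Factors at an unadjusted p under 0.05 were 2, Angpt1 and Angptl2, with DESeq2 (against 13.2% of all genes), the looser filter (11.3%), limma voom (12.9%), the block (13.4%) or the Xist covariate (11.4%). They were 3, with Angpt2, without mutant replicate 1, against 21.0% of all genes, and 0 without mutant replicate 2 or 3, against 6.58% and 7.35%. With a control left out only the other control remained, so log2 fold changes are given in place of such counts. Without control replicate 1 or 2 these were 0.22 or 0.88 for Angptl2 and 0.014 or 0.35 for Vegfa. Factors without overlap were 2 with the size factors of DESeq2 (against 30.9% of all genes) and 0 with library totals (against 33.3%). With libraries left out they were 1 to 8, against 39.9% to 62.4% of all genes. The 8 were without control replicate 2, where 62.4% of all genes did not overlap. The study criterion was met by 0 with the block (6.30% of all genes). It was met by 0 to 2 with a mutant library left out (3.99% to 11.3% of all genes), the 2 being without mutant replicate 1. The cause of these differences was not tested. Library totals moved the median log2 fold change of all genes to 0.088. The factors had at least 289 reads per library. Their median log2 fold change moved from 0.11 to −0.035 without control replicate 1 and to 0.20 without control replicate 2.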

Other observations

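Matrix fibroblast and lipofibroblast markers summed to 26849 and 28596 CPM in the controls and to 28054, 24734 and 25566 CPM in mutant replicates 1, 2 and 3. Of 12, 8 were lower and 4 higher. Tcf21, a transcription factor of lipofibroblasts, was at 1662 and 1168 CPM in the controls and at 1003, 902 and 963 CPM in the mutants (log2 fold change −0.57, SE 0.16, adjusted p = 0.354 in edgeR). Slc7a10, an amino acid transporter gene, had a difference of the other sign, at 27.4 and 37.2 CPM in the controls and at 40.1, 47.2 and 50.2 CPM in the mutants (log2 fold change 0.51, SE 0.16, adjusted p = 0.354 in edgeR). The 7 mesothelial markers in the table summed to 460 and 463 CPM in the controls and to 395, 353 and 468 CPM in the mutants, with 6 lower and 1 higher, and Upk3b was at 73.4 to 113 CPM.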
